A study of Mus musculus with 16 samples.

Results

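The chemokines and their receptors were examined in whole brains of male mice lacking the transporter Slc5a8 and of wild-type males, each at 18 and at 4 months of age. The members were taken by gene name: every probe outside the controls named Ccl, Ccr, Cxcl or Cxcr followed by a digit, plus Ppbp, Pf4, Cx3cl1 and Xcr1. This gave 55 of the 34964 gene names on the array, carried by 70 of its 55681 distinct probes. The 4 groups were Slc5a8-deficient mice at 18 months, wild-type mice at 18 months, Slc5a8-deficient mice at 4 months and wild-type mice at 4 months, with 4 arrays in each group. All are given as C57BL/6J males, and the allele behind the deficiency, the litters and the housing are not given in the sources used here. Slc5a8 is a sodium-coupled carrier of monocarboxylates such as lactate, pyruvate, butyrate and ketone bodies. RNA of freshly removed brain was labelled with Cy3 and read in 1 colour, so each array measured 1 sample. Per the design text the 4 replicates of a condition are biological, and nothing more is given on the animals. A p-value here therefore rests on the spread among brains or extracts within groups. In the limma fits that spread is pooled over the 4 groups.

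Chemokines are small secreted proteins that bind G protein-coupled receptors and direct the movement of leukocytes along their gradients. CC chemokines have adjacent cysteines near the amino end, CXC chemokines have a residue between these cysteines, and Cx3cl1 is tethered to the cell surface by a stalk. In brain, neurons make Cx3cl1 and microglia carry its receptor, Cxcl12 guides migrating cells and vessels, and the inflammatory CC ligands are made mainly by activated glia, macrophages and endothelium.

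All values below are levels or differences on the log2 scale. A level is the log2 of the background-subtracted spot intensity minus the array's 75th percentile, so a level of 0 equals that percentile and negative levels are dimmer spots. Since probes differ in brightness for reasons other than transcript number, a level is compared only between arrays and never between genes. A gene was called when its limma p-value, after Benjamini-Hochberg adjustment across the 23121 genes tested, was under 0.05. In bulk tissue, fewer cells of a type and less RNA per cell cannot be told apart.

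The 60-base probes behind the main results are printed first, since each result below is the brightness of these oligonucleotides. Coordinates are those of the scanner files (NCBI37, mm9). The first set holds Ccr6, the member that rose, and the members that fell in deficient brain.

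Ccr6, chr17:8449933-8449992, plus strand: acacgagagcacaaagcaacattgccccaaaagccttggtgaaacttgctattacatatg

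Ccl28, chr13_random:362589-362648, minus strand: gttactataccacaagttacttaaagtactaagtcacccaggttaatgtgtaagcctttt

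Ccl9, chr11:83388223-83388282, minus strand: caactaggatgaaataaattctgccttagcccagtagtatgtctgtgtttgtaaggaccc

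Ccl6, chr11:83401997-83402056, minus strand: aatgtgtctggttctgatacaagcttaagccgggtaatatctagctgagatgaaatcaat

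Cxcl5, chr5:91190490-91190549, plus strand: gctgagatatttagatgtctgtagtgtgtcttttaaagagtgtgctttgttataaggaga

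Ppbp, chr5:91198970-91199029, plus strand: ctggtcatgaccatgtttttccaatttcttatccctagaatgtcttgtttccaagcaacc

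The next set holds the 3 members that, besides Ccl6, rose with age.

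Ccl2, chr11:81850650-81850709, plus strand: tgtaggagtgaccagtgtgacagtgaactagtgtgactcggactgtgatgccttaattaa

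Ccl3, chr11:83461358-83461417, minus strand: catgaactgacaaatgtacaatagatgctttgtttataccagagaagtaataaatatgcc

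Ccl8, chr11:81930108-81930167, plus strand: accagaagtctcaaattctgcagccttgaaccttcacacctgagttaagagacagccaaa

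Ccl19 and Ccl27a were read by 3 probes each, shown because their probes differed in what they recorded. RefSeq also lists copies of both genes on chromosome 4 (Ccl19-ps1, Ccl19-ps2 and Ccl19-ps3, and Ccl27b), so the origin of these signals is uncertain. Capitals mark the 48 bases that 2 of the Ccl27a probes share, which makes them repeat measurements of nearly the same stretch.

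Ccl19 main probe, chr4:42250105-42250164, plus strand: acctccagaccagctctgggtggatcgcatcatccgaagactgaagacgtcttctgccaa

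Ccl19 start-site probe, chr4:42248630-42248689, plus strand: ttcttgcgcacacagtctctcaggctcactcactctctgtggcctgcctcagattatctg

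Ccl19 upstream probe, chr4:42248526-42248585, plus strand: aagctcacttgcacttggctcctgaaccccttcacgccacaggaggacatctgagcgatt

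Ccl27a main probe, chr4:41716345-41716404, minus strand: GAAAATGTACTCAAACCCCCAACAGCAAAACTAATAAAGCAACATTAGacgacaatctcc

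Ccl27a overlapping probe, chr4:41716357-41716416, minus strand: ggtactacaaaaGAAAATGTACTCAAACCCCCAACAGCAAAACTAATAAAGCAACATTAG

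Ccl27a separate probe, chr4:41720610-41720669, minus strand: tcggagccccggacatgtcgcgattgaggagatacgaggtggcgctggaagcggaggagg

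Matched against the RefSeq promoter windows (GRCm38.p6), the Ccl19 probe here called upstream lies from 131 to 72 bases before the annotated start of the gene, and the start-site probe begins 27 bases before it. The same 60 bases also lie across the annotated start of the gene model Gm12407 on chromosome 4. The 250 bases before the Ccl19 start are printed with that probe in capitals.

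Ccl19 upstream, chr4:42756366-42756615, minus strand: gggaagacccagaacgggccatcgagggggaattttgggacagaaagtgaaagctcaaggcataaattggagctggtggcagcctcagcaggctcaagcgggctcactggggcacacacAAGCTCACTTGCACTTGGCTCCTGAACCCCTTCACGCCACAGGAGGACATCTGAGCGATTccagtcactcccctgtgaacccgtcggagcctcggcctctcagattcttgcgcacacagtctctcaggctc

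The study as a whole had 4 features that bear on these genes. Each array held 59305 spots outside the controls, with 58.4% to 66.1% of them well above background and 0 saturated. Slc5a8 was well above background on 0 of the 16 arrays, so its probe cannot check the genotype labels, and its measured level did not differ between genotypes at 18 months (exact two-sided permutation p = 0.2) or at 4 months (p = 0.886; 0.0286 is the smallest 4 against 4 arrays allow). Genotype coincided with slide and scan, with all 8 deficient arrays on 1 of 2 slides, so genotype and slide cannot be told apart. The rows of the slide used also differed between the genotypes of an age. The array of young deficient replicate 1 stood apart on the first principal component (-97.45, against -26.72 to 26.26 for the other 15), and where a member's call within an age or a genotype was lost without it, the value without it is given. Markers of spinal cord and caudal hindbrain were higher in deficient than in wild-type brain in 8 of 8 tested genes at each age. The median difference was 2.225 at 18 months (3 called) and 1.605 at 4 months (0 called). All 8 were lower at 18 than at 4 months in each genotype. The median was -2.279 in deficient (2 called) and -3.79 in wild-type brain (4 called). These genes were well above background on 6 to 13 arrays. Choroid plexus genes were lower in deficient brain in 10 of 11 at 18 and 11 of 11 at 4 months, with 0 called. Of 6 tested olfactory genes 0 were called at 18 months, and S100a5 and Stoml3 were called lower at 4 months. The part of these markers in the results below was not tested.

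**Figure D1:**
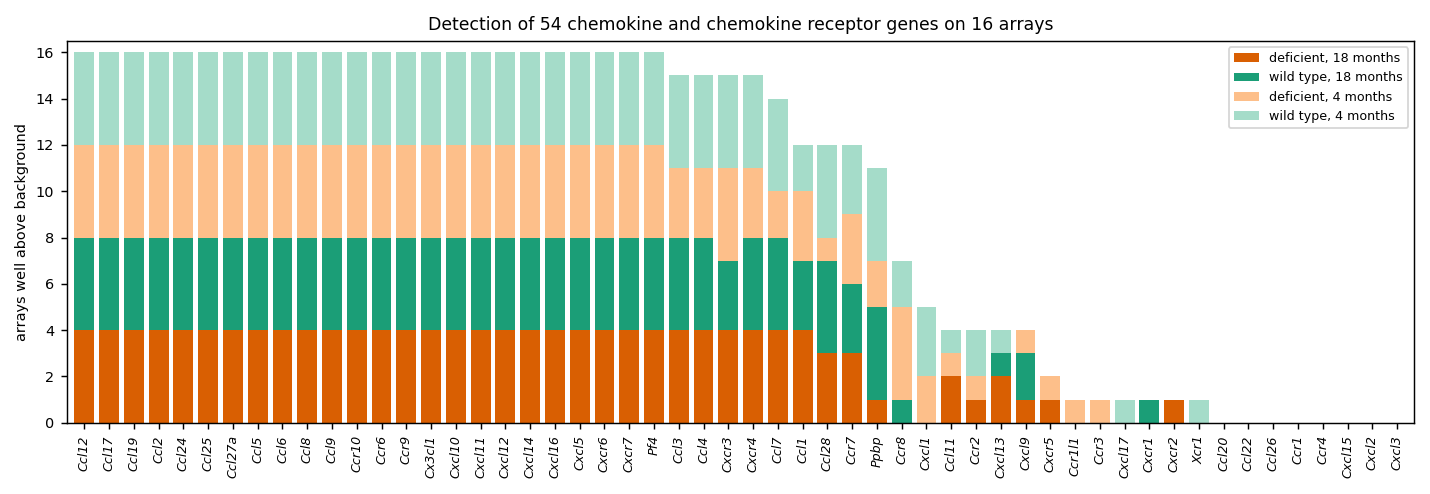
Number of arrays, of 16, on which the best probe of each of 54 chemokine and chemokine receptor genes was well above background, stacked by group (4 arrays each). At the left 24 genes reach 16 arrays, and at the right 8 genes stand at 0.

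The family was measurable in brain only in part. The best probe was well above background on all 16 arrays for 25 of the 55 genes, on 1 to 15 arrays for 22 genes and on 0 arrays for 8 genes. Over the whole array, 21076 of 34964 genes had a probe well above background on all 16 arrays. The 8 were Ccl20, Ccl22, Ccl26, Ccr1, Ccr4, Cxcl15, Cxcl2 and Cxcl3. They include the ligand of Ccr6 (Ccl20) and the receptor of Ccl3, Ccl6 and Ccl9 (Ccr1), which therefore have no usable level here. By probe, 33 of 70 were well above background on all arrays, 24 on some and 13 on none.

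A gene entered the tests when a probe of it passed the background flag on every array of some group. Of the 55 members 34 did, against 23121 of all 34964 genes. Several of the 34 entered through only some of the groups, which favours a difference. Ccl28 and Ppbp entered through the wild-type groups: Ccl28 was well above background on 3 old and 1 young deficient arrays, against 4 and 4 wild-type arrays. Ppbp was well above background on 1 old and 2 young deficient arrays, against 4 and 4 wild-type arrays. Ccr8 entered through young deficient brain alone (4 arrays, against 2 young wild-type, 0 old deficient and 1 old wild-type arrays) and Ccl1 through old deficient brain alone (4, 3, 3 and 2 arrays in the order of the groups above). Other members fell short of all 4 arrays in a single group each. In young deficient brain Ccl3, Ccl4 and Cxcr4 passed on 3 arrays and Ccl7 on 2. In old wild-type brain Cxcr3 passed on 3 arrays.

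Of the 21 untested genes, 13 were well above background on some arrays. Ccr7, the receptor that draws dendritic cells and T cells to lymph nodes along Ccl19, passed on 3 arrays of every group. Cxcl1, a neutrophil attractant, passed on 0 old deficient and 0 old wild-type arrays and on 2 young deficient and 3 young wild-type arrays. Ccr2, the monocyte receptor of Ccl2, passed on 1, 0, 1 and 2 arrays of the groups in the same order. Cxcl13, which draws B cells, passed on 2, 1, 0 and 1 arrays.

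**Figure D2:**
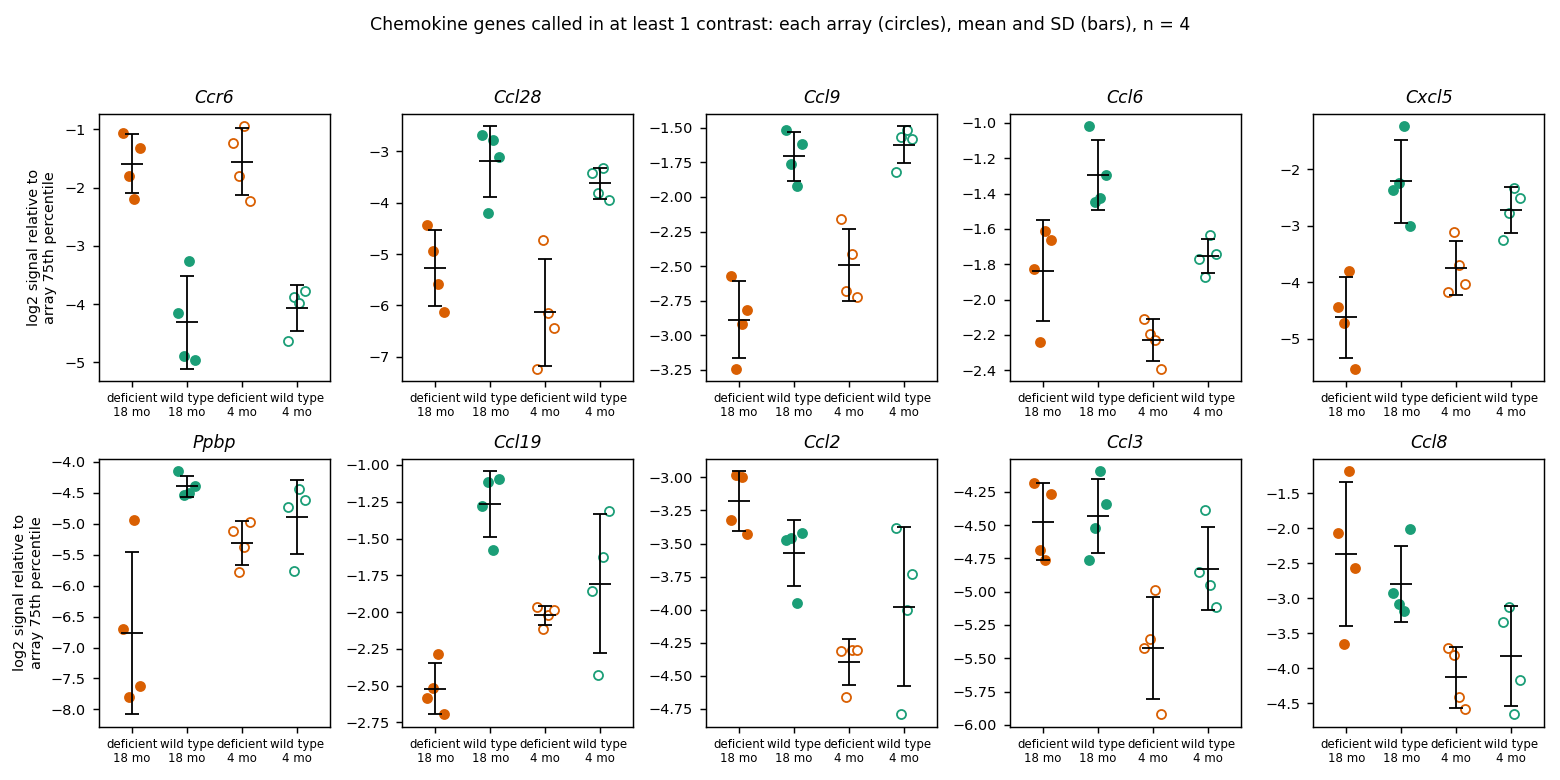
Level (log2 signal relative to the array's 75th percentile) of the 10 chemokine genes called in at least 1 contrast, 1 circle per array, with mean and SD bars (n = 4) and a separate axis for each gene. Ccr6 is higher on every deficient array than on any wild-type array, and Ccl9, Ccl28 and Cxcl5 at 18 months show the opposite order.

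The genotype comparison asked which members differed between deficient and wild-type brain at each age. At 18 months 6 of the 34 tested members were called (17.6%, against 1.48% of all genes, 0.913% higher and 0.571% lower): Ccr6 rose, while Ccl9, Ccl28, Cxcl5, Ppbp and Ccl19 fell. At 4 months 3 members were called (8.82%, against 1.54% of all genes, 0.683% higher and 0.852% lower): Ccr6 rose, and Ccl9 and Ccl28 fell. Ccl28 and Ppbp passed the filter on dim probes only through wild-type arrays. Among the 25 members with a probe well above background on all 16 arrays, 4 were called at 18 months and 2 at 4 months, against 281 and 321 of 21076 genes. The arrays of the genotypes did not overlap for 8 members at 18 months, against 8.09% of all genes, and for 4 members at 4 months, against 9.46%. The median difference of the tested members was 0.01 at 18 months and -0.12 at 4 months, against 0.01 and 0.02 for all genes. Averaged over age, 7 members were called (20.6%, against 3.17% of all genes, 1.65% higher and 1.53% lower), with Ccr6 higher and Ccl28, Cxcl5, Ppbp, Ccl9, Ccl19 and Ccl6 lower in deficient brain. The averaged Ppbp call was lost with normexp correction (-0.36; adjusted p = 0.2), without the filter on dim probes (adjusted p = 0.0759) and without any of 12 single arrays.

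**Figure D3:**
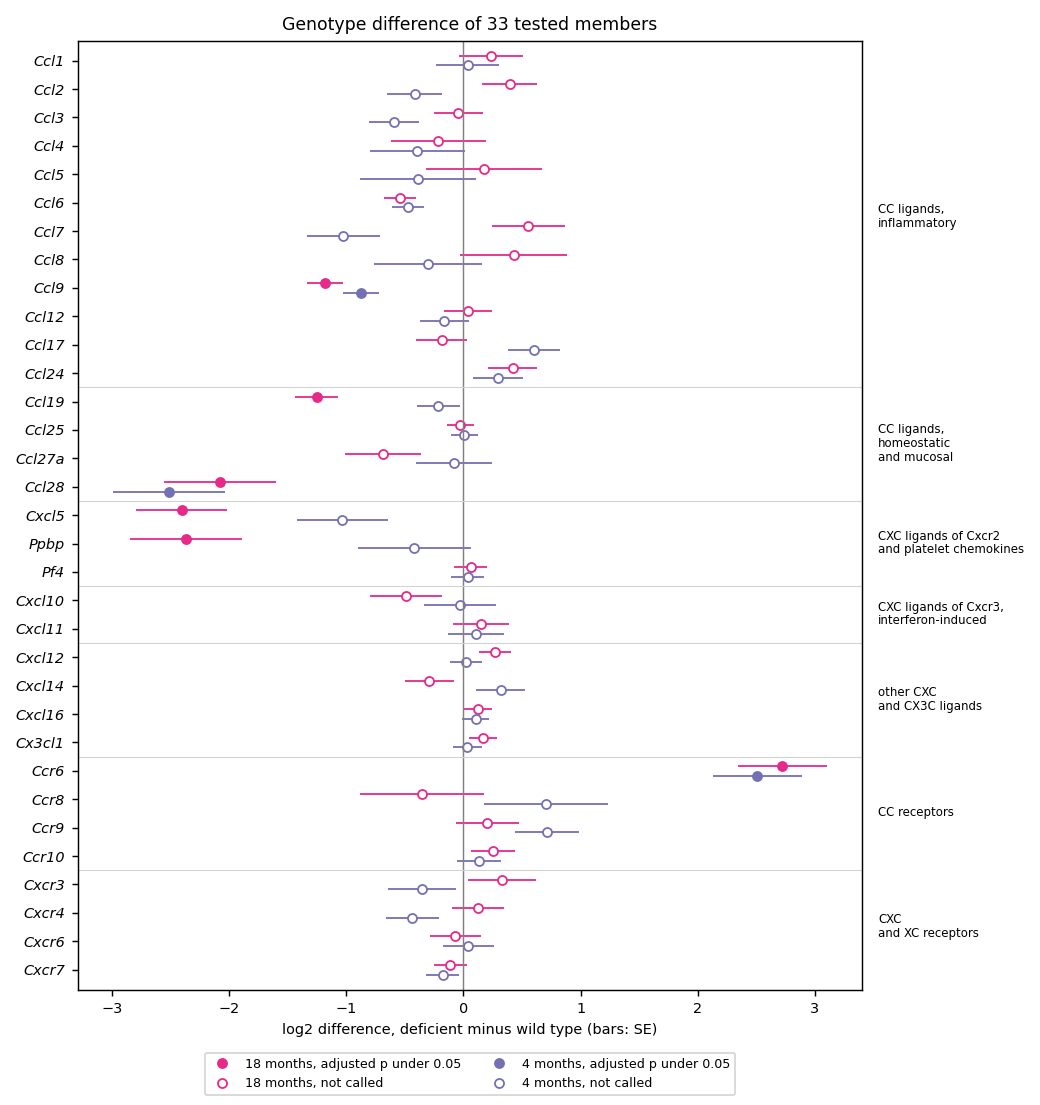
Log2 difference, deficient minus wild type, of 33 tested members at 18 months and at 4 months, with SE bars and filled circles where the limma adjusted p was under 0.05, grouped by role. Ccr6 lies alone at the right (2.72 and 2.51), while Ccl28, Cxcl5 and Ppbp reach furthest to the left.

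Ccr6, the receptor of Ccl20 that is carried by B cells, Th17 cells and some dendritic cells, was the only member called as higher in deficient brain, and it was called at both ages. At 18 months its level was -1.06, -1.79, -2.20 and -1.32 on the deficient arrays, against -4.14, -4.89, -3.26 and -4.96 on the wild-type arrays. At 4 months it was -1.24, -1.80, -0.94 and -2.24 on the deficient arrays, against -4.64, -3.87, -3.98 and -3.77 on the wild-type arrays. Every deficient array lay above every wild-type array, with a gap of more than 1 log2 unit at each age. The gene was well above background on all 16 arrays. The difference was 2.72 ± 0.38 (SE; 6.60-fold; limma adjusted p = 0.00142) at 18 months and 2.51 ± 0.38 (5.69-fold; adjusted p = 0.00429) at 4 months. Without young deficient replicate 1 the young difference was 2.40 (adjusted p = 0.0119). With normexp background correction the values were smaller, 1.81 at 18 months and 1.73 at 4 months, and were still called.

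With age Ccr6 was not called in either genotype, with differences of -0.04 in deficient and -0.25 in wild-type brain. Among lymphocyte markers, Ms4a1, Cd8a, Cd8b1 and Klrb1c were well above background on 0 arrays. Others, namely Cd3e, Cd4, Lck, Nkg7, Cd79a and Cd79b, were well above background on all 16. Of 14 T and NK cell markers 6 were tested and 0 were called at either age between genotypes. The measured differences were above 0 in 5 of the 6 at each age and in 6 of 6 on average (median 0.25). Their summed level (log2 of the summed signals, relative to the mean of the 16 arrays) ran from -0.15 to 0.12 in old deficient and from -0.27 to 0.25 in old wild-type brain, and from 0.00 to 0.84 in young deficient and from -0.27 to 0.15 in young wild-type brain. Their part in the Ccr6 difference was not tested. Of 10 B and plasma cell marker names, which hold Jchain and Ighm also under their older names Igj and Igh-6, 3 genes were tested. None was called (0 of 3), with summed levels of -0.32 to 0.94 in old deficient and -0.16 to 0.65 in old wild-type brain. The other tested CC receptors were not called between genotypes. Ccr9, the gut-homing receptor of Ccl25, differed by 0.20 (95% interval -0.38 to 0.78) at 18 months and by 0.71 (0.13 to 1.29; adjusted p = 0.196) at 4 months.

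Ccl28, a mucosal chemokine that binds Ccr10 and Ccr3, was dimmer in deficient brain. At 18 months its level was -4.44, -4.95, -5.59 and -6.12 on the deficient arrays, against -2.68, -4.20, -2.78 and -3.12 on the wild-type arrays. At 4 months it was -7.23, -4.72, -6.14 and -6.45 on the deficient arrays, against -3.43, -3.81, -3.31 and -3.94 on the wild-type arrays. The groups did not overlap at either age, and the closest arrays at 18 months were deficient replicate 1 and wild-type replicate 2. The difference was -2.08 ± 0.48 (adjusted p = 0.0428) at 18 months, -2.51 ± 0.48 (adjusted p = 0.0179) at 4 months and -2.30 ± 0.34 (adjusted p = 0.00119) on average. The probe was well above background on 3 old and 1 young of the deficient arrays and on all 8 wild-type arrays, so it was tested through the wild-type groups and the sizes rest on deficient values at or near background. With normexp correction the young difference was -0.80 (adjusted p = 0.0542). The old call was lost under quantile normalization (adjusted p = 0.0657), without the filter on dim probes and with the replicate number as a block. It was also lost without any of 12 single arrays. The adjusted p of the old difference was at most 0.144 in these fits. The young call was lost without wild-type replicate 1 (adjusted p = 0.0608) or replicate 3 (adjusted p = 0.0555) and held without deficient replicate 1 (-2.15; adjusted p = 0.0409).

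The receptor Ccr10 was well above background on all arrays and was not called. It differed by 0.25 (95% interval -0.15 to 0.66) at 18 months and by 0.13 (-0.27 to 0.54) at 4 months. Ccl27a, the skin chemokine that shares Ccr10, gave probe-dependent values. At 18 months its separate probe read 2.49, 2.58, 2.77 and 2.70 on the deficient arrays, against 3.33, 3.87, 3.44 and 3.71 on the wild-type arrays. All deficient arrays were lower, by 0.95 ± 0.12 on average (adjusted p over all kept probes = 0.000583). The overlapping pair of probes gave -0.69 ± 0.32 and -0.62 ± 0.28, which were not called (adjusted p = 0.504 over genes and 0.465 over probes). At 4 months the separate probe differed by 0.07 between genotypes.

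Ccl9 and Ccl6 are neighbouring CC chemokine genes on chromosome 11, with probes 13.7 kb apart, made by macrophages and microglia and bound by Ccr1. Ccl9 was lower in deficient brain at both ages. At 18 months its level was -2.57, -3.24, -2.92 and -2.82 on the deficient arrays, against -1.52, -1.76, -1.92 and -1.61 on the wild-type arrays. At 4 months it was -2.16, -2.68, -2.41 and -2.72 on the deficient arrays, against -1.82, -1.57, -1.52 and -1.58 on the wild-type arrays. The highest deficient array stayed below the lowest wild-type array at each age. The difference was -1.18 ± 0.15 (2.27-fold lower; adjusted p = 0.000861) at 18 months and -0.87 ± 0.15 (1.83-fold lower; adjusted p = 0.0122) at 4 months. Both calls held under every alternative tried and without each single array, young deficient replicate 1 included (-0.98; adjusted p = 0.0055).

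Ccl6 went the same way by less. At 18 months its level was -1.83, -2.24, -1.61 and -1.67 on the deficient arrays, against -1.02, -1.45, -1.42 and -1.29 on the wild-type arrays. At 4 months it was -2.11, -2.19, -2.23 and -2.39 on the deficient arrays, against -1.77, -1.87, -1.64 and -1.74 on the wild-type arrays. The genotypes did not overlap at either age. The differences of -0.54 (adjusted p = 0.0688) and -0.48 (adjusted p = 0.0939) missed the threshold, and their average of -0.51 ± 0.10 was called (adjusted p = 0.00841). Microglial markers, beside these genes, were lower in old deficient brain in 13 of 16 genes (median -0.24, with Trem2 called). At 4 months they were lower in 9 of 16 (median -0.02, with Sall1 called, but not without young deficient replicate 1, adjusted p = 0.0546). Perivascular macrophage markers were higher in old deficient brain in 7 of 8 tested genes (median 0.16, with F13a1 called) and at 4 months in 2 of 8 (median -0.02, with 0 called). The summed level of the microglial list ran from -0.03 to 0.07 in old deficient and from -0.13 to 0.13 in old wild-type brain. That of the perivascular macrophage list ran from -0.121 to 0.175 in old deficient and from -0.212 to 0.177 in old wild-type brain. For each list the ranges of the genotypes overlap. The part of both lists in the Ccl9 and Ccl6 differences was not tested.

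The promoters of Ccl9 and Ccl6 are printed because the neighbours shared a direction. Capitals mark the TATA box letters TATAAA on the forward strand and the NF-kappaB frame on either strand (GGG, any 5 bases, then CC). A further 2 motifs were searched on both strands, an interferon response frame (GAAA, any 2 bases, GAAA) and GAGGAA (the core bound by the macrophage factor PU.1). The Ccl9 window holds TATAAA 92 bases and the NF-kappaB frame 35 bases before the start, and the Ccl6 window holds none of the 4 motifs. TATAAA occurs in 7.59% of 32851 RefSeq promoters (GRCm38.p6) and in those of 8 of the 24 tested members with a promoter entry. The NF-kappaB frame occurs in 45.8% of all promoters and in those of 11 of the 24. The interferon frame occurs in 2.98% of all and in 3 of the 24, and the PU.1 core in 23.3% of all and in 9 of the 24.

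Ccl9 promoter, chr11:83578637-83578886, minus strand: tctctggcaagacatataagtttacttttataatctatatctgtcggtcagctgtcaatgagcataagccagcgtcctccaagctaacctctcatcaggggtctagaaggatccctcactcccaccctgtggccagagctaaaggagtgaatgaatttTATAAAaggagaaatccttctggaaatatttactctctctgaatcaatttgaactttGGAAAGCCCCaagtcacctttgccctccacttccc

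Ccl6 promoter, chr11:83593088-83593337, minus strand: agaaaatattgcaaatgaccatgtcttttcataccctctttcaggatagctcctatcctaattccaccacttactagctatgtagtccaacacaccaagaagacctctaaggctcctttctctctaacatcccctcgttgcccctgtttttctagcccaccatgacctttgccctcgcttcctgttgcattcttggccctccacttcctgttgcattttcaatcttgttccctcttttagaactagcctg

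The other inflammatory CC ligands were not called between genotypes. Of 16 inflammatory CC ligands on the array, Ccl9 and Ccl6 included, 12 were tested. Of these 12, 7 were higher and 5 lower in deficient brain at 18 months (median 0.11). At 4 months 3 were higher and 9 lower (median -0.39). Ccl7, which attracts monocytes through Ccr2, came closest at 4 months, at -1.03 ± 0.31 (adjusted p = 0.109). Its level there was -5.40, -6.17, -4.80 and -4.78 on the deficient arrays, against -3.62, -4.95, -4.16 and -4.32 on the wild-type arrays. The groups overlapped, since 2 deficient arrays lay above the lowest wild-type array. The Ccl7 probe was well above background on 2 of the 4 young deficient and all 4 young wild-type arrays. The size therefore rests in part on values not above background. At 18 months the Ccl7 difference was 0.55 (95% interval -0.11 to 1.21). Ccl2 differed by 0.39 (-0.11 to 0.89) at 18 months and by -0.42 (-0.92 to 0.08) at 4 months. Ccl3 differed by -0.04 (-0.49 to 0.41) and by -0.60 (-1.05 to -0.14; adjusted p = 0.169).

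Cxcl5 and Ppbp lie 8.4 kb apart on chromosome 5 by their probes. Cxcl5 draws neutrophils through Cxcr2, and Ppbp is the platelet granule precursor of a ligand of the same receptor. Cxcl5 fell in old deficient brain, with levels of -4.43, -4.72, -3.80 and -5.53 on the deficient arrays, against -2.36, -2.25, -1.23 and -3.01 on the wild-type arrays. No deficient array reached the lowest wild-type array. The difference was -2.41 ± 0.39 (5.30-fold lower; adjusted p = 0.00409). At 4 months the levels were -4.18, -3.11, -3.70 and -4.04 on the deficient arrays, against -3.26, -2.77, -2.34 and -2.51 on the wild-type arrays, which overlap. The young difference was -1.03 (95% interval -1.86 to -0.21; adjusted p = 0.188). The old call held under every alternative, with a smaller value of -1.35 after normexp correction.

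Ppbp behaved less evenly. At 18 months its level was -6.71, -7.80, -4.93 and -7.63 on the deficient arrays, against -4.16, -4.53, -4.50 and -4.39 on the wild-type arrays. The deficient arrays spread over nearly 3 log2 units, and replicate 3 came close to the wild-type arrays. The difference was -2.37 ± 0.48 (adjusted p = 0.0203). The probe was well above background on 1 of the 4 old deficient and all 4 old wild-type arrays, so it was tested through the wild-type groups and the size rests mostly on values not above background. With normexp correction it was -0.61 (adjusted p = 0.178), and the call was lost without any of 5 single old arrays (deficient replicates 1, 2 and 4, and wild-type replicates 1 and 4; adjusted p = 0.0522 to 0.0772). At 4 months the levels were -5.12, -5.77, -5.38 and -4.97 on the deficient arrays, against -4.73, -5.76, -4.44 and -4.62 on the wild-type arrays. Those groups overlap, and their difference was -0.42 (95% interval -1.44 to 0.60).

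Most blood markers also measured lower in old deficient brain. The summed level of 8 red blood cell genes was -2.09, -1.99, 0.02 and -1.14 on the old deficient arrays, against -0.09, 0.27, 0.75 and 0.24 on the old wild-type arrays. Old deficient replicate 3, with the highest Ppbp level of its group, also had the highest red blood cell level of its group. All 8 red blood cell genes were lower in old deficient brain and 3 were called (Hbb-bt, Hbb-b2 and Alas2). Of 12 platelet genes, a list that holds Ppbp and Pf4 themselves, 9 were tested. In old deficient brain 7 of the 9 were lower, Ppbp among them, and besides Ppbp only Gp9 was called. Their summed level ran from -0.29 to -0.10 in old deficient and from -0.19 to 0.12 in old wild-type brain. The platelet receptor genes Gp1ba and Gp6 were well above background on 0 arrays. Of 9 neutrophil genes 7 were tested, and all 7 were lower in old deficient brain with 0 called. Their summed level was -1.04 to -0.23 in old deficient and -0.60 to 0.65 in old wild-type brain. The part of blood content in the Ppbp and Cxcl5 differences was not tested.

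Pf4, the platelet chemokine that is also made by brain macrophages, lies 3.2 kb from Ppbp and was not called. It differed by 0.06 (95% interval -0.24 to 0.36) at 18 months and by 0.03 (-0.26 to 0.33) at 4 months, with levels between -0.81 and -0.01 over the 16 arrays. The receptors Cxcr1 and Cxcr2 were each well above background on a single array and were not tested.

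Ccl19, the lymph node chemokine that binds Ccr7, fell in old deficient brain. Its level was -2.58, -2.52, -2.29 and -2.69 on the deficient arrays, against -1.28, -1.11, -1.57 and -1.10 on the wild-type arrays. The genotypes were well apart at this age. The difference was -1.25 ± 0.19 (2.39-fold lower; adjusted p = 0.00233), and it was called under every alternative and without each single array. The start-site probe gave -1.004 ± 0.193 (adjusted p over all kept probes = 0.0147). The upstream probe gave -0.60 ± 0.17 (adjusted p = 0.142). At 4 months the level was -1.97, -2.11, -2.02 and -1.99 on the deficient arrays, against -1.85, -2.43, -1.63 and -1.31 on the wild-type arrays. The young groups overlap, and the difference was -0.21 (95% interval -0.61 to 0.18).

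The ligands of the interferon-induced group and the other CXC and CX3C ligands were not called between genotypes. Cxcl10, which draws T cells through Cxcr3, differed by -0.49 (95% interval -1.15 to 0.17) at 18 months and by -0.03 (-0.69 to 0.63) at 4 months. Cx3cl1, the neuronal ligand of the microglial receptor Cx3cr1, had levels of 6.05 to 6.59 over the 16 arrays. Its differences were 0.17 (-0.09 to 0.43) and 0.03 (-0.23 to 0.29), so changes beyond 0.43 lay outside both intervals. Cxcl12 differed by 0.27 (-0.02 to 0.55) and 0.02 (-0.26 to 0.31) on its main probe. Its second probe gave 0.05 and -0.25, so the direction at 4 months depended on the probe. Cxcr4, the signalling receptor of Cxcl12, differed by 0.12 (-0.35 to 0.60) and by -0.44 (-0.91 to 0.04). Cxcr7 (now Ackr3), its scavenging receptor, differed by -0.11 (-0.41 to 0.19) and -0.18 (-0.48 to 0.12). Cxcl14 differed by -0.29 (-0.74 to 0.15) and 0.32 (-0.13 to 0.76), and Cxcl16, the ligand of Cxcr6, by 0.12 (-0.13 to 0.38) and 0.10 (-0.15 to 0.36).

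Whether the genotype difference itself differed between the ages was tested as an interaction, the old minus the young genotype difference. None of the 34 members was called by limma (0.19% of all genes were), and 6 had an unadjusted p under 0.05. Among those with the smallest p were Ccl19 at -1.04 ± 0.26 (adjusted p = 0.177), Ccl7 at 1.58 (adjusted p = 0.222), Ppbp at -1.95 (adjusted p = 0.326) and Cxcl5 at -1.37 (adjusted p = 0.4). So although Cxcl5, Ppbp and Ccl19 were called at 18 and not at 4 months, these tests do not show that their differences changed with age. Without old deficient replicate 3, Ppbp was called (-2.57; adjusted p = 0.027). Its probe was well above background on 1 of the 4 old deficient arrays, so that size rests mostly on values not above background. Among the further probes, the separate Ccl27a probe was called (-1.02 ± 0.17; adjusted p over all kept probes = 0.0205), also without young deficient replicate 1 (adjusted p = 0.0257).

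**Figure D4:**
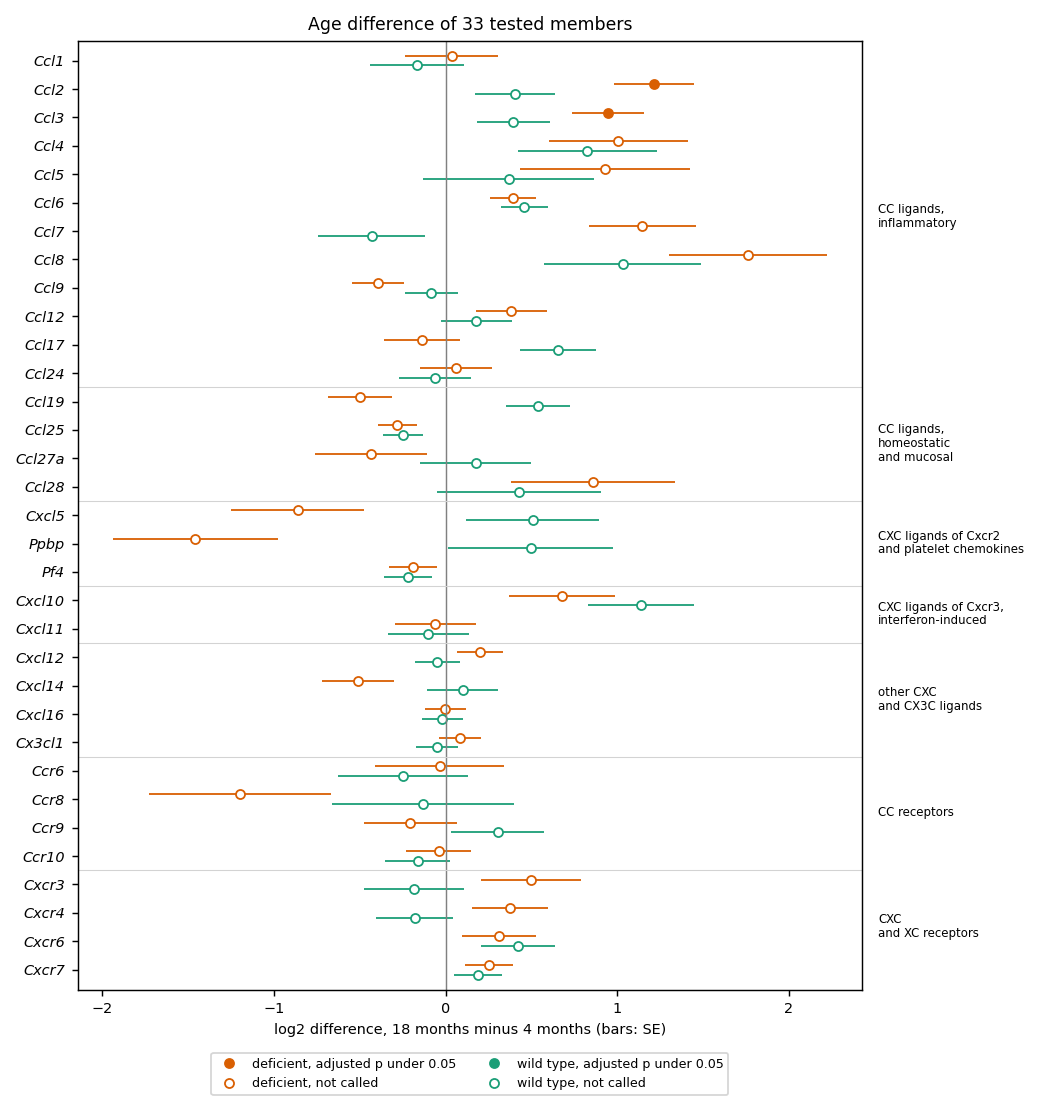
Log2 difference, 18 months minus 4 months, of 33 tested members in deficient and in wild-type brain, with SE bars and filled circles where the limma adjusted p was under 0.05, grouped by role. Ccl2 (1.22) and Ccl3 (0.95) in deficient brain are the filled circles.

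The age comparison asked which members differed between 18 and 4 months within a genotype. In deficient brain Ccl2 and Ccl3 rose, which makes 2 of 34 called (5.88%, against 2.37% of all genes, 1.25% of them higher). In wild-type brain 0 of 34 were called by limma, also with the trend and robust options (0.424% of all genes were called), and 6 had an unadjusted p under 0.05. Averaged over both genotypes Ccl2, Ccl3, Ccl6 and Ccl8 were called, all higher at 18 months (4 of 34, or 11.8%, against 1.6% of all genes, 0.692% of them higher). The arrays of the ages did not overlap for 7 members in deficient brain, against 17.9% of all genes, and for 3 in wild-type brain, against 3.55%. The deficient share of 7 in 34 lies near that background. The 4 genes called on average are inflammatory CC ligands. Of the 12 tested ligands of that group 10 were higher and 2 lower at 18 months in deficient brain (median 0.66), and 8 were higher and 4 lower in wild-type brain (median 0.38). The median over all genes was -0.01 in deficient and 0.00 in wild-type brain.

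Ccl2, the main monocyte attractant and a ligand of Ccr2, had levels of -3.32, -2.98, -3.00 and -3.43 on the old deficient arrays, against -4.31, -4.66, -4.31 and -4.30 on the young deficient arrays. All 4 old arrays lay above all 4 young arrays. The difference was 1.22 ± 0.23 (2.32-fold; adjusted p = 0.0154), and without young replicate 1 it was 1.24 (adjusted p = 0.0298). Without old replicate 2 it was 1.15 and no longer called (adjusted p = 0.0621). In wild-type brain the levels were -3.47, -3.46, -3.95 and -3.42 on the old arrays, against -3.38, -4.79, -4.00 and -3.73 on the young arrays. These overlap, since young replicates 1 and 4 lay within the old range or above it. The wild-type difference was 0.40 (95% interval -0.10 to 0.90), and the test of the difference between the genotypes gave 0.81 (adjusted p = 0.414).

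Ccl3, made by activated microglia and bound by Ccr1, had levels of -4.18, -4.69, -4.76 and -4.27 on the old deficient arrays, against -5.42, -5.36, -4.99 and -5.92 on the young deficient arrays. The ages did not overlap. The difference was 0.95 ± 0.21 (1.93-fold; adjusted p = 0.0334). The probe was well above background on 3 of the 4 young and all 4 old deficient arrays, so the size rests in part on a value not above background. The difference was not called without young replicate 1 (adjusted p = 0.0641), whose own Ccl3 value lay inside its group, nor without any of 5 other single arrays of the study. The call was also lost with normexp correction, without the filter on dim probes and with the replicate number as a block. In wild-type brain the levels were -4.76, -4.52, -4.10 and -4.34 on the old arrays, against -4.85, -4.39, -4.95 and -5.11 on the young arrays. The young replicate 2 lay among the old arrays, and the difference was 0.39 (95% interval -0.06 to 0.85). Its neighbour Ccl4, 16.6 kb away and likewise an attractant of monocytes and T cells, differed by 1.01 ± 0.41 in deficient and by 0.83 ± 0.41 in wild-type brain, neither called (adjusted p = 0.183 and 0.835). The Ccl4 probe was likewise well above background on 3 of the 4 young deficient arrays. Leaving out old wild-type replicate 2, at -2.05 the highest Ccl4 array, brought the deficient difference to an adjusted p of 0.0159.

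Ccl8, a ligand of Ccr8 in mouse, showed the largest age difference among the members in deficient brain and on average. Its level was -2.07, -3.65, -1.19 and -2.56 on the old deficient arrays, against -3.71, -3.81, -4.42 and -4.58 on the young deficient arrays. It was -2.92, -3.08, -3.18 and -2.00 on the old wild-type arrays, against -3.34, -3.13, -4.66 and -4.17 on the young wild-type arrays. The ages were separate in deficient brain, by a narrow gap, and overlapped in wild-type brain. The difference was 1.76 ± 0.46 (adjusted p = 0.0567) in deficient brain, 1.03 ± 0.46 (adjusted p = 0.74) in wild-type brain and 1.40 ± 0.32 (adjusted p = 0.0435) on average. The averaged call was lost under quantile normalization (adjusted p = 0.0502) and without any of 13 single arrays. It was also lost with normexp correction, without the filter on dim probes and with the replicate number as a block.

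The tested genes Ccl2, Ccl7, Ccl12 and Ccl8 lie in this order on chromosome 11, with probe spacings of 9.9, 56.0 and 13.3 kb. The probe of Ccl11, a member that was not tested, lies between those of Ccl7 and Ccl12. Ccl7 differed with age by 1.15 ± 0.31 in deficient brain (adjusted p = 0.0627) and by -0.43 (95% interval -1.09 to 0.23) in wild-type brain. Ccl7 read -4.71, -3.84, -3.82 and -4.17 on the old deficient arrays, against -5.40, -6.17, -4.80 and -4.78 on the young deficient arrays, which do not overlap. Its probe was well above background on 2 of these 4 young deficient arrays. Ccl12, a mouse ligand of Ccr2, differed by 0.38 (-0.06 to 0.82) in deficient and by 0.18 (-0.26 to 0.62) in wild-type brain. Ccl6 differed by 0.39 (adjusted p = 0.129) and 0.46 (adjusted p = 0.292), and by 0.43 ± 0.10 on average (adjusted p = 0.0376). The averaged call was lost with normexp correction (0.34; adjusted p = 0.0662), without the filter on dim probes (adjusted p = 0.085) and without any of 12 single arrays. Its neighbour Ccl9 differed by -0.39 and -0.08, so 2 adjacent genes that were both lower in deficient brain differed in the sign of their age values. Ccl5, a T cell and monocyte attractant, differed by 0.93 (-0.13 to 1.99) and 0.37 (-0.69 to 1.42). Its old deficient replicate 3 stood at 0.08, against -2.63 to -1.82 for the others of that group.

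Cxcl10 had the smallest p of the members in wild-type brain. Its level was -1.97, -2.50, -2.77 and -2.02 on the old arrays, against -3.32, -4.21, -3.00 and -3.29 on the young arrays. The ages did not overlap. The difference of 1.14 ± 0.31 missed the threshold (adjusted p = 0.21). In deficient brain it was 0.68 (adjusted p = 0.229) and on average 0.91 ± 0.22 (adjusted p = 0.0519). Ccl17, a ligand of Ccr4, differed by -0.14 in deficient and by 0.65 ± 0.22 in wild-type brain (adjusted p = 0.454). Ccl25, the thymic ligand of Ccr9, differed by -0.28 and -0.25, and by -0.26 on average (adjusted p = 0.127). Ccl19 differed by -0.50 in deficient and by 0.54 in wild-type brain (adjusted p = 0.156 and 0.471).

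The separate Ccl27a probe fell with age in deficient brain, at 2.49, 2.58, 2.77 and 2.70 on the old arrays, against 3.43, 3.58, 3.31 and 3.28 on the young arrays. No old array reached a young array, and the difference was -0.77 ± 0.12 (adjusted p over all kept probes = 0.00597; 0.0133 without young replicate 1). The overlapping probe pair gave -0.43 and -0.45, neither called, and in wild-type brain the separate probe gave 0.25 (adjusted p = 0.809). A second Cxcr6 probe, for the receptor of Cxcl16, differed by 0.78 ± 0.24 in deficient brain (adjusted p = 0.0992), where the main probe gave 0.31.

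Receptors were not called with age in either genotype. Cxcr4 differed by 0.38 (95% interval -0.10 to 0.85) in deficient and -0.18 (-0.66 to 0.30) in wild-type brain. Ccr8, found on regulatory and type 2 helper T cells, was well above background on all 4 young and 0 old deficient arrays. The fit did not call the age difference in deficient brain (adjusted p = 0.215). Its young deficient replicate 1 read -2.08, against -5.61 to -4.94 on the others of that group. Cx3cl1 and Cxcl12 differed by 0.09 and 0.20 in deficient brain and by -0.05 each in wild-type brain, none of them called.

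Cell and tissue markers also differed between the ages, and their part in these results was not tested. In deficient brain all 8 red blood cell genes were lower at 18 months and 7 were called (5 without young deficient replicate 1), and all 7 tested neutrophil genes were lower with 0 called. Monocyte markers were lower in 4 of 5 tested genes in each genotype, with 0 called. Microglial markers were higher at 18 months in 9 of 16 genes in deficient brain (median 0.02) and in 13 of 16 in wild-type brain (median 0.27), with 0 called in either. Pituitary genes, of which 6 were tested, were all lower at 18 months in both genotypes, with 0 called. Choroid plexus genes were lower in 9 of 11 in deficient (median -0.316) and 11 of 11 in wild-type brain (median -0.724), with 0 called. Of 6 tested olfactory genes 4 were lower in deficient brain, with S100a5 called. In wild-type brain 5 were lower, with Omp and S100a5 called. Fibroblast and meningeal genes were lower in 7 of 10 in each genotype, with Col1a1 called in deficient brain.

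Few of the genes that act with the chemokines outside the naming rule were called. Of 13 atypical receptors, further receptors and related ligands 10 were tested, and 0 were called between genotypes at either age. The 10 include Ackr3, which is the member Cxcr7 under its current name. Averaged over age Ackr2, which scavenges inflammatory CC chemokines, was called, with differences of 0.47 at 18 months (adjusted p = 0.165) and 0.33 at 4 months (adjusted p = 0.259). Ackr1, the chemokine-binding receptor of red blood cells and venules, fell with age in deficient brain (-0.53 ± 0.13; adjusted p = 0.0454), and was not called without young deficient replicate 1 (-0.45; adjusted p = 0.0952). The microglial receptor Cx3cr1 differed by -0.23 between genotypes at 18 months (adjusted p = 0.749). Of 28 genes that relay chemokine receptor signals 25 were tested and 0 were called in any of the 7 contrasts. The smallest p among them in old brain was that of Pik3cg, the leukocyte PI3 kinase (-0.48; adjusted p = 0.417). Of 25 NF-kappaB and cytokine genes 14 were tested and 0 were called between genotypes. Ptgs2, an inducible prostaglandin synthase, rose with age in deficient brain (0.79 ± 0.15; adjusted p = 0.013; 0.0304 without young replicate 1).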

How the data were processed

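Whole-brain RNA of 16 male mice was measured on Agilent arrays in 1 colour, 4 arrays in each of 4 groups. Groups, ages and replicate numbers come from the labels, whose strain tag holds the age and whose age tag holds the strain. Per the file headers, Feature Extraction 10.7.3.1 subtracted background to give the deposited processed intensity and set a flag, deposited with it, for spots well above background. Per the submitters' processing notes limma was used. The authors' deposited value table holds log2 values whose scale is not stated. Probe ranks in its columns matched those of the raw median intensity (Spearman's rho of at least 0.99997) and their medians were 6.606 to 6.622. It served only as an alternative.

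From the scanner intensities, outlier spots were left out (98 to 182 per array), spots of a probe averaged, and the array's 75th percentile (624 to 1346 intensity units) subtracted after log2. Probes well above background on all 4 arrays of a group were kept (33072 probes), and the brightest kept probe on average stood for its gene. With limma 3.58.1 a model with a mean per group was fitted to 23121 genes (R 4.3.3, data.table of version 1.17.8), with 12 residual and 2.84 prior degrees of freedom, and p-values were Benjamini-Hochberg adjusted across the genes in each of 7 contrasts. Values for further probes of a gene come from the same fit over all kept probes. Intervals are 95%. The summed level of a marker list is the log2 of the sum of its tested genes' scaled signals on an array, minus the mean of that value over the 16 arrays. The number of arrays limits the precision.

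The text names members called in any contrast, the 4 with the smallest p in each, their known ligand or receptor partners, and members with a known role in brain. A member that is among the counts is itself not reported here, and the plots leave it out. The members, lists and rules were chosen with earlier results of these data known. Alternatives were normexp background correction (offset 50), quantile normalization, the deposited table, other filters and probe summaries, the replicate number as a block, moderation with trend and robust options, and leaving out each array. Promoter sequences are from RefSeq (GRCm38.p6) and probe sequences and coordinates (NCBI37, mm9) from the scanner files. No genome sequence or protein sequence was used here.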

Additional observations from a re-analysis of the deposited data

Results flagged for a closer look

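In groups of 4 arrays, a value was marked when its gap to the nearest other array was above Dixon's 95% critical value as a share of the group's range. Over 24 tested members and 4 groups, 5 of 96 gene and group pairs were marked, and chance marks about 1 in 20.

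Ccl2 was marked in young deficient replicate 2 (-4.66, against -4.31 to -4.30 in the other 3) and in old wild-type replicate 3 (-3.95, against -3.47 to -3.42). Both arrays were low for their group, and they enter the age difference of Ccl2 in deficient and in wild-type brain. Ccl5 was marked in old wild-type replicate 4 (-2.19, against -1.71 to -1.64) and in young wild-type replicate 2 (-3.31, against -1.92 to -1.67). Cxcr7 was marked in young deficient replicate 1 (-0.35, against 0.02 to 0.05), the array that stood apart on the first principal component.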

How the results depend on the processing

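Of 22 calls of a member in a contrast, 12 held under every alternative in which they could be tested and without each single array: Ccr6 and Ccl9 at both ages and on average, Ccl19 and Cxcl5 at 18 months and on average, and the averaged genotype differences of Ccl28 and Ccl6. Ccl28, Ppbp and Ccl3 could not be tested with probes well above background on all 16 arrays. None of the 22 reversed. The age calls were the least stable. The count in deficient brain (2) was 0 with normexp correction, 1 without a filter on dim probes and 1 with probes well above background on all 16 arrays. The averaged age count (4) was 0 with normexp correction and 0 without the filter. Leaving out single arrays gave 2 to 3 calls for the young and 4 to 6 for the old genotype difference, 1 to 3 for age in deficient and 0 to 0 in wild-type brain, 0 to 1 for the interaction, 6 to 7 for the averaged genotype difference and 0 to 4 for the averaged age difference (0 without young wild-type replicate 3). Normexp correction lowered the dim members most: Ccl2 with age in deficient brain was then 0.61 (adjusted p = 0.0889) and Ccl3 0.29 (adjusted p = 0.337). Some calls were gained. In the deposited table these were Ccl6 at 18 months (-0.58; adjusted p = 0.0185) and Ccl8 with age in deficient brain (1.32; adjusted p = 0.0407). Without old replicate 3, Ppbp was gained with age in deficient brain (-2.07; adjusted p = 0.0065). Its probe was well above background on 1 old and 2 young deficient arrays, so that size rests mostly on values not above background. The values of Ackr1, Ackr2, Ptgs2, Sall1, the red blood cell genes and the separate Ccl27a probe without young deficient replicate 1 were an alternative chosen after seeing the data. The causes of these shifts were not tested.

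Replicate numbers did not pair the samples: deviations of same-numbered arrays correlated between -0.444 and 0.274, and 4 of 16 arrays had their closest array of another group under the same number. With the replicate number as a block the age count in deficient brain was 1 and the averaged age count 2, and Ccl28 at 18 months had an adjusted p of 0.0953. The probes of Ccl28 and Ppbp in deficient brain lay near the background, which limits the size of their differences.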
